A study of Mus musculus with 14 samples.

Results

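In mouse leukemia cells under DMSO, 575 narrow WDR5 peaks lay outside every H3K4me2 peak of the series. They were chosen by position: an autosomal WDR5 peak of the DMSO library, at most 500 bp wide, that shared no base with a peak of any of the 4 H3K4me2 lists. They made up 4.18% of the 13744 autosomal WDR5 peaks of that width and came from a list of 14481 WDR5 peaks. The absence of H3K4me2 and the narrow width were therefore set by the choice and are described without a test. What the choice did not use was whether WDR5 was called at the same place in other cells or treatments, and whether MLL1 was called there.

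The cells were mouse bone marrow cells transduced with the MLL-AF9 oncogene, called MAF9 cells, and grown in medium holding 15% fetal bovine serum and 10 ng per ml of interleukin-3. ChIP-seq, which sequences the DNA bound by an antibody, mapped WDR5 and H3K4me2 in 4 conditions with 15 µl of antibody per experiment. MAF9 cells received MM-401, a compound that blocks the contact of MLL1 with WDR5, at 20 µM for 2 days, or DMSO as control. MAF9-transduced cells of the genotype MLL1 flox/flox, ER-Cre+/- received 4-hydroxytamoxifen (4OHT) at 400 nM for 2 days, which switches on the Cre recombinase to delete MLL1, or ethanol (EtOH) as control. All 4 conditions thus share the MLL-AF9 oncogene, and the EtOH control also carries the floxed alleles and the inducible Cre. MLL1 was mapped under DMSO and MM-401 only, so its deletion under 4OHT could not be checked in these lists.

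WDR5 is a scaffold protein with a ring-shaped fold that holds together the methyltransferase complexes of the MLL family, and it also takes part in other chromatin complexes. MLL1 is one of the enzymes of that family. H3K4me2 is a histone mark that these enzymes make and that is typical of active and primed promoters and enhancers, so WDR5 is known mostly from chromatin that carries it.

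Each of the 10 deposited lists came from 1 library and gives peak positions with no height, score or read count. Depth is therefore unknown, a peak missing from a list means only that none was called there, and no level of binding can be compared. The lists differed in length, from 14481 WDR5 peaks under DMSO to 17273 under MM-401, 34587 under EtOH and 41054 under 4OHT. Every antibody was used on a single library in each condition, which leaves no replicate error and allows no test between conditions. The 95% intervals below (Wilson for a share, Newcombe for a difference of shares) cover the counting of peaks only. Coordinates are those of the deposited lists, for which the submitters' processing notes name mouse build mm9. No gene or sequence was assigned, since no mm9 genome or annotation was used here.

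The H3K4me2 lists of the other conditions removed most candidates. Of the 13744 peaks, 1554 (11.3%) lay outside H3K4me2 in the DMSO list, the list of the same cells. Requiring that they also lie outside the MM-401 list left 776, adding the EtOH list left 594 and adding the 4OHT list left 575. More than 1 in 2 of the WDR5 peaks without an H3K4me2 call under DMSO therefore had one in another condition. At the other end, 11415 peaks lay inside H3K4me2 in all 4 lists, and 1754 lay inside 1 to 3 lists. These served as comparison groups. Wide WDR5 peaks were seldom outside the mark: of the 545 autosomal peaks wider than 500 bp, which the choice left out, 4 (0.734%) overlapped no H3K4me2 peak.

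At the limit of the choice, the values on either side differed by a few bases. There were 48 chosen peaks that touched an H3K4me2 peak without sharing a base, such as chr1:91149226-91149350, which lay beside a peak of the MM-401 list. The WDR5 peaks chr1:99600801-99600975 and chr1:172572701-172572975 touched the mark in the same way. Just inside the mark, 61 peaks were left out although they were overlapped by 25 bp or less in a single list. Examples are chr1:77928926-77929025 and chr1:90162051-90162150, each overlapped by 25 bp under DMSO, and chr1:176533526-176533800, overlapped by 25 bp under EtOH.

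The chosen peaks were narrow even among narrow peaks. Their median width was 125 bp with an interquartile range of 100 to 200 bp, against 175 bp and 125 to 275 bp for peaks inside all 4 H3K4me2 lists. Widths lay in steps of 25 bp. Of the chosen peaks 37.9% were 75 to 100 bp wide, against 22.7% inside the mark. Only 3.48% were 325 to 500 bp wide, against 15.8% inside. Peak width carries weight below because wide peaks were overlapped more often in each of the WDR5 lists.

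The distances of the peaks to H3K4me2 spanned a wide range, with many peaks close to its edge. The median distance to the nearest H3K4me2 peak of any list was 3526 bp, with the upper quartile at 17276 bp, where a distance of 1 bp means touching. There were 132 peaks (23.0%, 95% interval 19.7 to 26.6) within 100 bp and 235 (40.9%, 36.9 to 44.9) within 1 kb. The next 9 kb added only 149 peaks, and 191 lay more than 10 kb away.

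To see what the local density of H3K4me2 would give, the 575 peaks were moved together by 10, 20, 30, 40 and 50 kb to each side, and those of the moved peaks that landed outside H3K4me2 were measured again. Over the 10 moves a mean of 1.12% lay within 100 bp and 8.96% within 1 kb, with a range of 7.77 to 10.5% for the latter. The median distance after a move was 9076 to 14114 bp. At 50 kb little difference remained, with 87.8% (84.9 to 90.3) of the real peaks and a mean of 86.2% of the moved ones within that distance. The excess near the mark thus sat within the first kilobase.

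**Figure D1:**
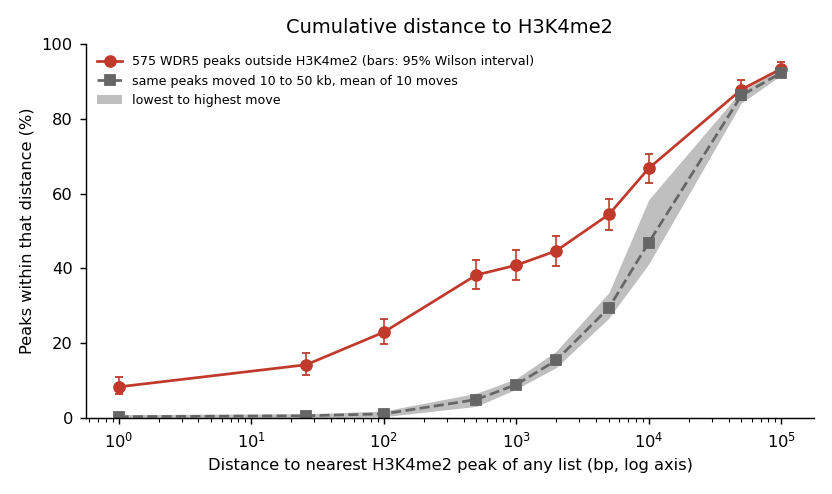
Cumulative share of the 575 WDR5 peaks (vertical axis, percent) within a given distance of the nearest H3K4me2 peak of any list (horizontal axis, bp, log scale), with 95% Wilson intervals, beside the mean and range of the same peaks after 10 fixed moves of 10 to 50 kb. The real peaks stand at 40.9% within 1 kb against 8.96% for the moved ones, and at 87.8% against 86.2% within 50 kb.

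The mark lay somewhat closer in MAF9 cells than in the flox cells. Median distances were 6226 bp to the DMSO list, 5826 bp to the MM-401 list, 11151 bp to the EtOH list and 12601 bp to the 4OHT list. Of the 235 peaks within 1 kb of any list, 72 were within 1 kb in each of the 4 lists. There were 80 peaks (13.9%) with H3K4me2 within 1 kb on both sides in at least 1 list, and 20 of these had it in all 4. Such peaks sat in a gap between neighbouring H3K4me2 peaks. The H3K4me2 peaks that bordered a WDR5 peak within 1 kb were narrow, with median widths of 250 to 275 bp in the 4 lists, where the whole lists had medians of 300 to 450 bp.

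Many of the peaks were called again at the same place in other libraries. Under MM-401, 191 of the 575 (33.2%, 29.5 to 37.2) were overlapped by at least 1 bp by a WDR5 peak, beside 38.8% of all 13744 autosomal peaks of that width. In EtOH 122 were overlapped (21.2%, 18.1 to 24.7), beside 32.7% of all. In 4OHT 105 were overlapped (18.3%, 15.3 to 21.6), beside 28.4% of all. After the moves of 10 to 50 kb, the mean shares were 0.417% for MM-401, 0.713% for EtOH and 0.661% for 4OHT, and no move gave more than 1.39% in any of these lists. Recurrence of the peaks outside H3K4me2 was thus far above the local density of WDR5 calls, and below that of DMSO WDR5 peaks in general. For EtOH and 4OHT the second part depended on the H3K4me2 lists used in the choice. The alternative below dropped the MM-401, EtOH and 4OHT H3K4me2 lists together, so which of them mattered was not tested. The 1554 peaks outside the DMSO H3K4me2 list alone were overlapped at 34.6% in EtOH and 31.9% in 4OHT, not below all peaks. Under MM-401 their share was 36.0%.

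The shortfall against peaks inside all 4 H3K4me2 lists differed between the lists. It was small for MM-401, at 33.2 against 38.3%, a difference of -5.06 percentage points (-8.89 to -1.01). It was larger for EtOH, at 21.2 against 33.6% or -12.4 points (-15.7 to -8.76), and for 4OHT, at 18.3 against 29.0% or -10.8 points (-13.8 to -7.29). Peaks inside only 1 to 3 H3K4me2 lists were overlapped at 43.7, 30.7 and 27.8%. These 3 comparisons share the DMSO list, and each is given on its own. For peaks outside the DMSO H3K4me2 list alone, the shares were 36.0, 34.6 and 31.9%, so the EtOH and 4OHT shortfalls were not seen.

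**Figure D2:**
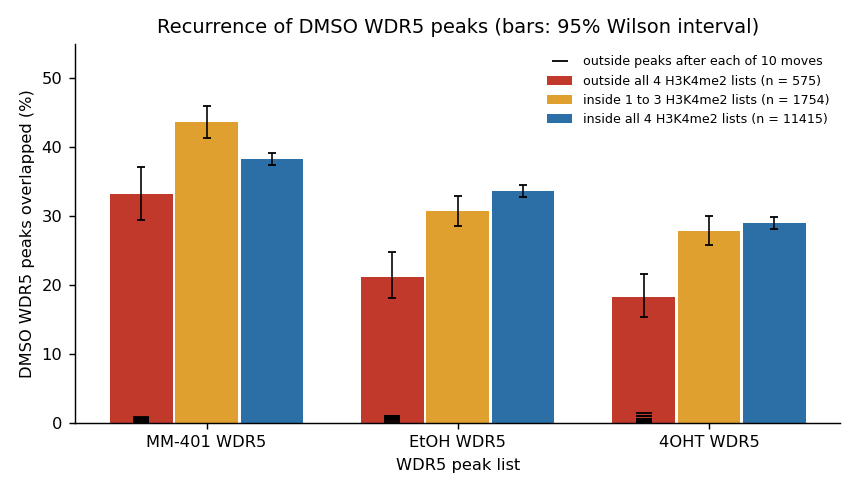
Share of DMSO WDR5 peaks overlapped by at least 1 bp (vertical axis, percent) in the WDR5 lists of the other 3 conditions, for peaks outside all 4, inside 1 to 3 and inside all 4 H3K4me2 lists, with 95% Wilson intervals. Black dashes mark the outside peaks after each of 10 moves, none above 1.39%, while the unmoved outside peaks stand at 33.2, 21.2 and 18.3%.

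Within width classes no MM-401 shortfall was separated from 0, while those of EtOH and 4OHT were at widths up to 200 bp. At 75 to 100 bp the outside and inside peaks were overlapped under MM-401 at 16.5 and 16.9%. At 125 to 200 bp the outside peaks were overlapped more often, at 36.4 against 28.6%, a difference of 7.79 points (1.89 to 14.1). At 225 to 300 bp the shares were 57.8 and 54.1%, with an interval of the difference from -6.77 to 13.6 points. In EtOH the outside peaks stayed lower at 75 to 100 bp, 11.5 against 18.1%, and at 125 to 200 bp, 19.8 against 25.7%. In 4OHT the same classes gave 10.1 against 16.2% and 18.2 against 24.2%. The widest class held 20 outside peaks, too few to separate them from the inside ones in any list. For MM-401 the difference in that class was -4.44 points (-26.3 to 12.6). EtOH gave 7.71 points (-14.3 to 23.3) and 4OHT gave 13.5 points (-8.31 to 30.6).

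**Figure D3:**
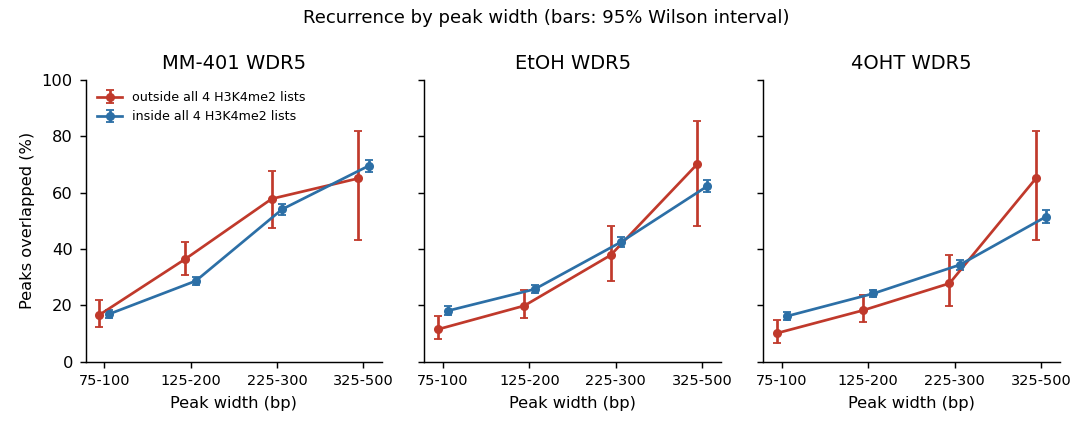
Share of DMSO WDR5 peaks overlapped (vertical axis, percent) by width class (horizontal axis, bp) in the MM-401, EtOH and 4OHT WDR5 lists, for peaks outside and inside all 4 H3K4me2 lists, with 95% Wilson intervals. Shares rise with width in each panel, and the outside peaks of 125 to 200 bp lie above the inside ones under MM-401 (36.4 against 28.6%) and below them in EtOH and 4OHT.

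The matches were close in position. The WDR5 peaks that overlapped chosen peaks had a median width of 225 bp under MM-401, 275 bp in EtOH and 250 bp in 4OHT, and the median offset between the centres was 37.5, 50 and 50 bp. These partner peaks were themselves mostly outside the mark of their own condition: 14.7% overlapped H3K4me2 of the same condition under MM-401, 9.02% in EtOH and 4.76% in 4OHT. In the whole lists those shares were 88.0, 54.7 and 47.5%. The chosen peaks lay outside all 4 H3K4me2 lists, and the median length shared with a partner was 125 bp in each list. Only the part of a partner beyond the chosen peak could therefore meet the mark. Low shares among the partners thus follow at least in part from the choice and are no separate result. Chosen peaks with a match were wider than those without, with medians of 175 and 125 bp in each list.

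Taking the 3 lists together, 268 of the 575 peaks (46.6%) were overlapped in at least 1 of them, against 62.2% of the peaks inside the mark. A match under MM-401 alone was the most frequent pattern, in 114 peaks (19.8%, against 15.5% inside). EtOH alone had 17 and 4OHT alone had 16, or 2.96 and 2.78% where the peaks inside the mark gave 9.36 and 7.98%. In contrast, 44 peaks (7.65%, against 6.62% inside) were overlapped in both EtOH and 4OHT and not under MM-401. All 3 lists shared 29 peaks (5.04%, against 9.22% inside), and 307 peaks (53.4%) were found under DMSO only.

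The widest peaks that recurred in every WDR5 list show that some of these sites were not marginal in width. The peak chr3:157725026-157725525 was 500 bp wide and lay 23551 bp from the nearest H3K4me2 peak, with distances of 23551 to 23851 bp in the 4 lists. The 500 bp peak chr11:32242476-32242975 lay 4226 to 4426 bp and the 425 bp peak chr2:154932926-154933350 lay 4451 to 4651 bp from the mark in the 4 lists. For these 3 peaks the edge of the closest H3K4me2 call thus varied little between conditions. The 350 bp peaks chr11:113430826-113431175 and chr14:23959501-23959850 lay closer, at 801 and 151 bp from an EtOH H3K4me2 peak. The latter was within 351 bp of the mark in the flox cells and at least 1551 bp from it in MAF9 cells.

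The widest peaks of the MM-401-only pattern were narrower than these 5, while peaks found in no other list reached 450 bp. The 3 widest with a match under MM-401 and in neither flox list were each 300 bp wide. Of these, chr10:42135851-42136150 lay 59801 bp and chr16:90239426-90239725 lay 14976 bp from the mark. The other, chr15:52240376-52240675, lay 20776 bp from a DMSO H3K4me2 peak and at least 296426 bp from the mark in the other conditions. The 3 widest without a match were chr17:81020076-81020525 at 450 bp, and chr1:34658926-34659325 and chr5:138433026-138433425 at 400 bp each. The nearest WDR5 peak of another condition was 47501 bp from the chromosome 17 peak and 68701 bp from the chromosome 1 peak. For the chromosome 5 peak it was 4976 bp away, in 4OHT, and H3K4me2 was 26 bp away under MM-401.

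The farthest peaks lay in large stretches with no H3K4me2 call in any condition. The 75 to 100 bp peaks chr9:11103551-11103650, chr5:80395426-80395500 and chr1:114894551-114894625 were 1209701, 1053126 and 1009226 bp from the nearest H3K4me2 peak. None of these 3 was overlapped by a WDR5 peak in another condition. A MM-401 WDR5 peak lay 126 bp from the chromosome 1 peak, and a 4OHT WDR5 peak lay 1851 bp from the chromosome 9 peak.

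Recurrence under MM-401 was higher close to H3K4me2, while in the flox cells near and far peaks were not separated over all widths. The classes used here, up to 1 kb (235 peaks), 1 to 10 kb (149) and over 10 kb (191), were set after the distances had been seen. Under MM-401 the near peaks were overlapped at 44.7%, the middle ones at 23.5% and the far ones at 26.7%. Near exceeded far by 18.0 points (8.85 to 26.6). In EtOH the shares were 21.3, 18.1 and 23.6%, and in 4OHT 16.2, 14.8 and 23.6%. Over all widths the near and far peaks were not separated there, with differences of -2.28 points (-10.3 to 5.59) in EtOH and -7.39 points (-15.1 to 0.181) in 4OHT.

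**Figure D4:**
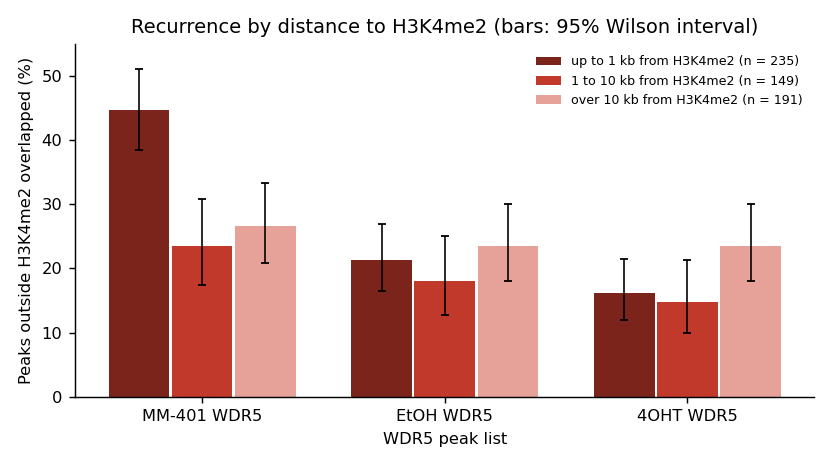
Share of the WDR5 peaks outside H3K4me2 overlapped (vertical axis, percent) in the MM-401, EtOH and 4OHT WDR5 lists, by distance to the nearest H3K4me2 peak of any list, with 95% Wilson intervals. Under MM-401 the near peaks stand above the far ones (44.7 against 26.7%), while in EtOH and 4OHT the far peaks have the highest shares with overlapping intervals.

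The near and far peaks had the same median width, 125 bp, and the MM-401 difference was present among narrow peaks. At 75 to 100 bp the near and far shares were 27.8 and 8.45%, and at 125 to 200 bp they were 50.5 and 28.2%. Among the wider peaks they were 65.9 and 60%, a difference of 5.91 points with an interval from -14.8 to 26.4. In 4OHT the difference ran the other way at 125 to 200 bp, with 11.9% of the near and 27.1% of the far peaks overlapped, or -15.2 points (-26.6 to -3.83). At the other widths of 4OHT and at each width of EtOH the intervals included 0. Near peaks flanked by H3K4me2 on both sides in at least 1 list were overlapped at 43.8% under MM-401, 32.5% in EtOH and 28.8% in 4OHT.

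The far peaks carried the pattern shared by the flox cells. Of the 191 peaks more than 10 kb from the mark, 27 (14.1%) were overlapped in both EtOH and 4OHT and not under MM-401, against 7 of the 235 near peaks (2.98%). Near minus far was -11.2 points (-17.0 to -5.94). This pattern and the comparisons that follow from it were chosen after the values had been seen. A far peak found in one flox list was usually found in the other: 36 of the 45 with an EtOH match also had a 4OHT match (80.0%). Of the near peaks 22 of 50 did so (44.0%), and of the peaks inside all 4 H3K4me2 lists 1809 of 3836 did so (47.2%). Far exceeded inside by 32.8 points (18.9 to 42.1). Among peaks of 75 to 200 bp the shares were 83.9 and 37.9%, and among wider ones 71.4 and 53.8%, with an interval of the latter difference that included 0. With a gap of up to 2 kb allowed between matched peaks, the far and inside peaks were no longer separated, with a difference of 6.49 points (-7.12 to 15.1).

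Peaks shared by DMSO, EtOH and 4OHT were seldom called under MM-401 when they lay far from the mark. Of the 36 such far peaks 9 were overlapped under MM-401 (25%, 13.8 to 41.1), against 1053 of 1809 peaks inside H3K4me2 (58.2%, 55.9 to 60.5). The difference was -33.2 points (-44.7 to -17.0). For the near peaks the share was 15 of 22 (68.2%), and for the middle ones 5 of 15 (33.3%). With limits of 2, 5, 20 and 50 kb in place of 10 kb, the difference lay between -33.2 and -29.6 points. These sets are nested and share the same inside peaks, so their likeness is no independent support. At 10 kb the difference was -17.1 points (-28.5 to 1.94) among peaks of 75 to 200 bp, which made up 26 of the 36 far peaks. Among wider ones it was -29.2 points (-52.6 to -0.388). Both were smaller than over all widths. Counting MM-401 peaks up to 2 kb away raised the far share to 30.6% and the inside share to 78.0%. Such a gap can also take in other WDR5 peaks. After the moves, a mean of 0.777% of all inside and 0.417% of all outside peaks met a MM-401 WDR5 peak. The far and inside peaks counted here were all called under DMSO, in the same MAF9 cells that received MM-401. MM-401 differs from DMSO in treatment and in library, and these cannot be told apart here. From the flox cells it differs in cell line as well.

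**Figure D5:**
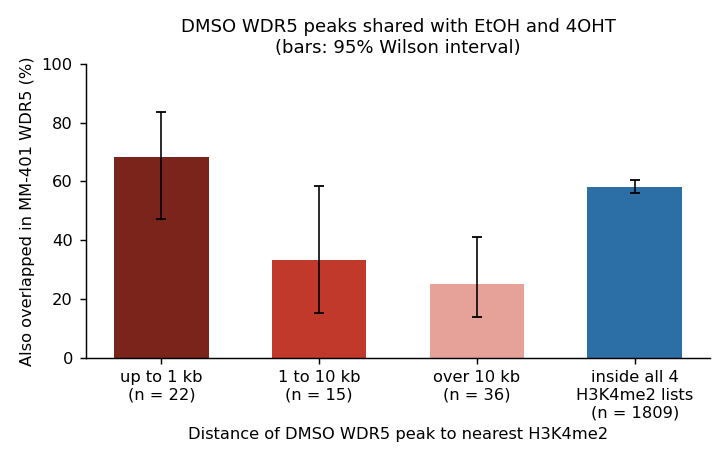
For DMSO WDR5 peaks with a match in EtOH and in 4OHT, the share overlapped under MM-401 (vertical axis, percent), by distance to the nearest H3K4me2 peak or inside all 4 H3K4me2 lists, with 95% Wilson intervals. The share is 25% for the 36 peaks over 10 kb away and 58.2% for the 1809 peaks inside the mark.

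The 27 far peaks missing under MM-401 were spread over 12 chromosomes, with at most 3 on any of them. They were 75 to 325 bp wide with a median of 125 bp, the same as the whole set. All chosen peaks matched in EtOH had a median of 175 bp, as did all those matched in 4OHT. The median distance of the 27 peaks to the mark was 38951 bp, and 25 of the 27 had no MM-401 WDR5 peak within 10 kb. The 3 farthest from the mark, named after their values had been seen, were chr9:8781201-8781325, chr3:24462901-24463075 and chr4:89941051-89941150. They lay 457501, 418376 and 397676 bp from H3K4me2, and 599201, 1793826 and 437776 bp from the nearest MM-401 WDR5 peak.

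MLL1 was nearly absent from these peaks. In the DMSO MLL1 list 3 of the 575 were overlapped (0.522%, 0.178 to 1.52), beside 3.1% of all 13744 peaks and 3.50% of those inside the mark. The moved peaks gave a mean of 0.174%, with a range of 0 to 0.348%. In the MM-401 MLL1 list 3 were overlapped as well (0.522%), beside 5.62% of all and 6.47% inside the mark, and the moved peaks gave 0.296%, with a range of 0.174 to 0.522%. The difference from the peaks inside was -2.98 points (-3.48 to -1.93) under DMSO and -5.94 points (-6.52 to -4.85) under MM-401. These 2 MLL1 lists may come from different peak callers and are not compared with each other.

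The surroundings held about as much MLL1 as those of the moved peaks. Within 2 kb, 2.61% had a DMSO MLL1 peak, where the moves gave 1.04 to 2.78% and the peaks inside the mark 18.2%. For the MM-401 MLL1 list the share was 6.78%, where the moves gave 5.39 to 6.78% and the peaks inside 39.4%. Within 2 kb the peaks outside H3K4me2 thus did not stand above the range of the moves in MLL1 calls. At the scale of overlap the DMSO MLL1 share, 0.522%, exceeded the highest move, 0.348%. That share rests on 3 peaks, too few to settle whether there was an excess.

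The peaks with MLL1 were 6 different ones, none of them in both MLL1 lists. The peak chr11:113430826-113431175, already described as present in every WDR5 list, overlapped a MM-401 MLL1 peak and lay 5827 bp from a DMSO one. The 175 bp peak chr9:71761026-71761200 also had MLL1 under MM-401, along with WDR5, and lay 51 bp from a DMSO H3K4me2 peak but at least 36926 bp from the mark elsewhere. The 150 bp peak chr1:134394526-134394675 had MLL1 under DMSO and WDR5 in both flox lists. The 75 bp peaks chr2:181665501-181665575, with MLL1 under DMSO, and chr4:146806101-146806175, with MLL1 under MM-401, had no WDR5 match in another condition. The remaining peak, chr13:3372301-3372375, is also 75 bp wide and falls outside the 5 named by the rule only by its place in a tie. It had MLL1 under DMSO, WDR5 matches under MM-401 and in EtOH, and H3K4me2 at 1351 bp.

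WDR5 itself was also sparse around these peaks. Another DMSO WDR5 peak lay within 10 kb of 105 of them (18.3%), against 51.4% of the peaks inside the mark, and the median distance to the next one was 49626 against 9051 bp. This follows in part from the choice, since only 11.3% of the DMSO WDR5 peaks of this width lay outside DMSO H3K4me2. Joining peaks within 10 kb of each other gave 563 clusters, of which 6 held more than 1 peak. The largest, noticed after the values had been seen, held 7 peaks in chr1:100610251-100630325, a span of 20075 bp. All 7 of them were overlapped under MM-401, 3 in EtOH and 3 in 4OHT, and their distances to H3K4me2 ran from 426 to 20401 bp. Without this cluster the near peaks exceeded the far ones under MM-401 by 19.3 points (10.2 to 27.9).

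The peaks were found on all 19 autosomes, from 13 to 59 on each, much as the peaks inside the mark were. Chromosome 1 held 10.3% of them and 10.6% of the peaks inside. On 1 chromosome the interval of the difference excluded 0: chromosome 16, with 26 peaks (4.52%) against 2.93% inside, a difference of 1.60 points (0.141 to 3.64) among 19 compared. The first 5 Mb of the chromosomes held 17 of the peaks (2.96%), against 1.76% of those inside, a difference of 1.20 points (0.0633 to 2.94). Several of the 17 lay together in chr11:3000426-3076075, while the interval counts each peak as separate and is thus too narrow. The comparison was not planned, and no excess is drawn from it.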

How the data were processed

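ChIP-seq of WDR5, H3K4me2 and MLL1 in MAF9 cells and MLL1 flox/flox cells gave 14 samples, of which 4 inputs were not used. The deposited files hold the start and end of each peak and neither scores nor read counts. The submitters' processing notes name Bowtie and build mm9. Peak names identify the caller HPeak in 9 lists, whose positions lie on a 25 bp grid and were read as 1-based. The DMSO MLL1 list has no names, the study describes MACS with a p-value cutoff for MLL1 in these cells, and 1 bp was added to its starts. Thresholds of the HPeak lists are not given in the sources used here. Since no depth is known, precision is limited to the number of peaks.

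Overlap meant at least 1 bp shared. Distance was the difference of facing coordinates. Scripts used Python 3.11.15, numpy 2.4.6, pandas 2.3.3, scipy 1.17.1 and matplotlib 3.10.9, and were tested on simulated lists and against bedtools 2.31.1. No p-value was computed. The rule for named peaks was the widest of each recurrence pattern and of those with MLL1, and the nearest and farthest from H3K4me2. The peaks, lists and comparisons were chosen with earlier results of these data known. Planned gene and sequence context was not run here, since it needs an mm9 genome or annotation. Alternatives were width, overlap, gap, list length, H3K4me2 lists used, chromosome 1 and clusters.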

Additional observations from a re-analysis of the deposited data

How the results depend on the processing

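No paired analysis was possible because each condition and antibody had 1 library, and for the same reason no replicate could be left out. The cause of the changes below was not tested unless the setting itself shows it. Requiring the DMSO H3K4me2 list alone gave 1554 peaks, overlapped at 34.6% in EtOH and 31.9% in 4OHT. At these shares the shortfalls against peaks inside all 4 lists (33.6 and 29.0%) were not seen. The median distance of the 575 peaks to the DMSO H3K4me2 list was 6226 bp. Requiring at least 2 kb from the mark left 318 peaks, with 26.4% overlapped under MM-401. Allowing a gap of up to 2 kb gave 40% for MM-401, 30.3% for EtOH, 28.9% for 4OHT, 2.61% for DMSO MLL1 and 6.78% for MM-401 MLL1. Requiring 50% of the peak to be covered gave 28.9, 17.2 and 15.0% for the WDR5 lists and 0.174% for MM-401 MLL1. A limit of 200 bp gave 27.1, 15.9 and 14.4%, and the widest 50% gave 48.8, 30.7 and 25.8%. Shortening the other list to its widest peaks gave 16.5% for EtOH and 13.4% for 4OHT.

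Within width classes, the outside minus inside difference reversed for MM-401 at 125 to 200 bp (7.79 points) and 225 to 300 bp (3.72), and for EtOH (7.71) and 4OHT (13.5) at 325 to 500 bp. It was -0.411 for MM-401 at 75 to 100 bp. From the narrowest class up it was -6.62, -5.87 and -4.66 for EtOH and -6.06, -5.97 and -6.58 for 4OHT. For DMSO MLL1 it was -4.88 at 325 to 500 bp, and for MM-401 MLL1 it was -3.91 at 75 to 100 bp, -7.20 at 225 to 300 bp and -3.87 at 325 to 500 bp.

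Alternatives for the distance classes were chosen after seeing the data. Near minus far under MM-401 was 5.91 points at 225 to 500 bp and 26.9 with a gap of up to 2 kb. Far minus inside, for a 4OHT match among peaks matched in EtOH, was 46.0 at 75 to 200 bp, 17.7 at 225 to 500 bp and 6.49 with a gap of 2 kb. For a MM-401 match among peaks in both flox lists it was -47.4 with that gap. WDR5 calls were denser around the inside peaks, and what this added was not tested. The other 48 values stayed within the counting interval of the reported ones, or, for the number of peaks, at 579 with no width limit and 465 with a limit of 200 bp.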
